A study of Mus musculus with 6 samples.

Results

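Glycolysis and the response to low oxygen were examined in tumor endothelial cells (ECs) through 34 genes, listed by symbol. All 34 were among the 24346 gene symbols measured. They cover glucose uptake, the enzymes from hexokinase to pyruvate kinase, the handling of pyruvate and lactate, the hypoxia-inducible factors (HIFs) with the hydroxylases that control them, and HIF target genes. The RNA came from CD31+CD45- cells sorted on day 19 from subcutaneous tumors of MC38, a mouse colon carcinoma line. There were 3 samples from C57BL/6 WT mice and 3 from Apelin-KO mice of the same background, aged 8 to 10 weeks, and both groups carry saline in their labels. The Apelin-KO mice carry the deletion of Apln in all host cells and not in the EC alone, while the inoculated MC38 cells are not knockout cells, and the sources used here do not say whether a sample was 1 mouse or a pool. Because the study asked how loss of Apelin alters tumor vessels and tumor hypoxia, the comparison here asks whether the ECs carried a different level of glycolytic and hypoxia-response transcripts.

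ECs make much of their ATP by glycolysis even when oxygen is at hand, and sprouting vessels depend on it. Glucose enters through GLUT carriers, is phosphorylated by hexokinase, is committed to glycolysis by phosphofructokinase, and leaves as pyruvate, which lactate dehydrogenase turns into lactate for export by MCT carriers. When oxygen is low, the EGLN prolyl hydroxylases no longer mark HIF-1α and HIF-2α for destruction, and the stabilized HIFs switch on many of the genes of this list through the core letters ACGTG or GCGTG in DNA.

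Values are FPKM, read fragments divided by transcript length and by the mapped reads of the library, which account for length and so allow levels of different genes to be compared. Differences are given as log2 fold change, WT minus Apelin-KO, on the scale log2(FPKM + 1), which understates the change of genes with low values. A negative value therefore means a higher mean in Apelin-KO ECs. Genes whose 6-sample mean reached 1 FPKM were tested with limma, a linear model that pools the spread between samples over genes, and 29 of the 34 passed this filter among 10964 genes in all. The p-values measure only the spread between these samples. With 3 samples a side, the smallest p-value an exact permutation test can give is 0.1.

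The 6 samples had an estimated depth of 8920000 to 10140000 reads. Apln, the deleted gene, was at 432, 435 and 504 FPKM in WT ECs and at 9.96, 17.5 and 24.3 FPKM in Apelin-KO ECs, so that the targeted gene separated the groups without overlap. Endothelial markers summed to between 3815 and 5067 FPKM in every sample, and Pecam1, which encodes CD31, was at 553 to 671 FPKM in WT ECs and 689 to 846 FPKM in Apelin-KO ECs. Cdh5, which encodes VE-cadherin, was at 155 to 214 FPKM and 219 to 294 FPKM. Of 8 epithelial and MC38 tumor markers, 0 reached a mean of 1 FPKM, and their sum was 0.186 to 1.56 FPKM. Hematopoietic markers remained at 202 to 1606 FPKM in sum despite the CD45- gate. Ptprc, which encodes CD45, was at 3.13, 4.84 and 1.26 FPKM in WT ECs and at 0.043, 1.70 and 0.74 FPKM in Apelin-KO ECs. In such bulk samples, fewer cells of a type and less RNA per cell cannot be told apart.

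No member had an adjusted p-value under 0.05 in limma with Benjamini-Hochberg adjustment over all genes tested, and the smallest was 0.501. Over all genes tested, 1 gene, Apln, passed, which is 0.00912%. At an unadjusted p-value under 0.05, 0 members were higher in WT than in Apelin-KO, beside 5.17% of all genes tested, and 2 members, Egln1 and Pdk1, were lower in WT ECs, beside 4.25%. The 3 WT values lay wholly above the 3 Apelin-KO values in 0 of the 29 members, beside 6.61% of all genes tested. They lay wholly below in 4 members, Pfkm, Pfkp, Pkm and Pdk1, beside 7.77%. The median log2 fold change was -0.23 over the 29 members and -0.01 over all genes tested. Of the members 7 were above 0 and 22 below, beside 5209 and 5755 of all genes tested. Without Apelin-KO 3 the member median was -0.02. With endothelial marker scaling, described with the markers, it was -0.02, beside 0.22 over all genes tested.

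**Figure D1:**
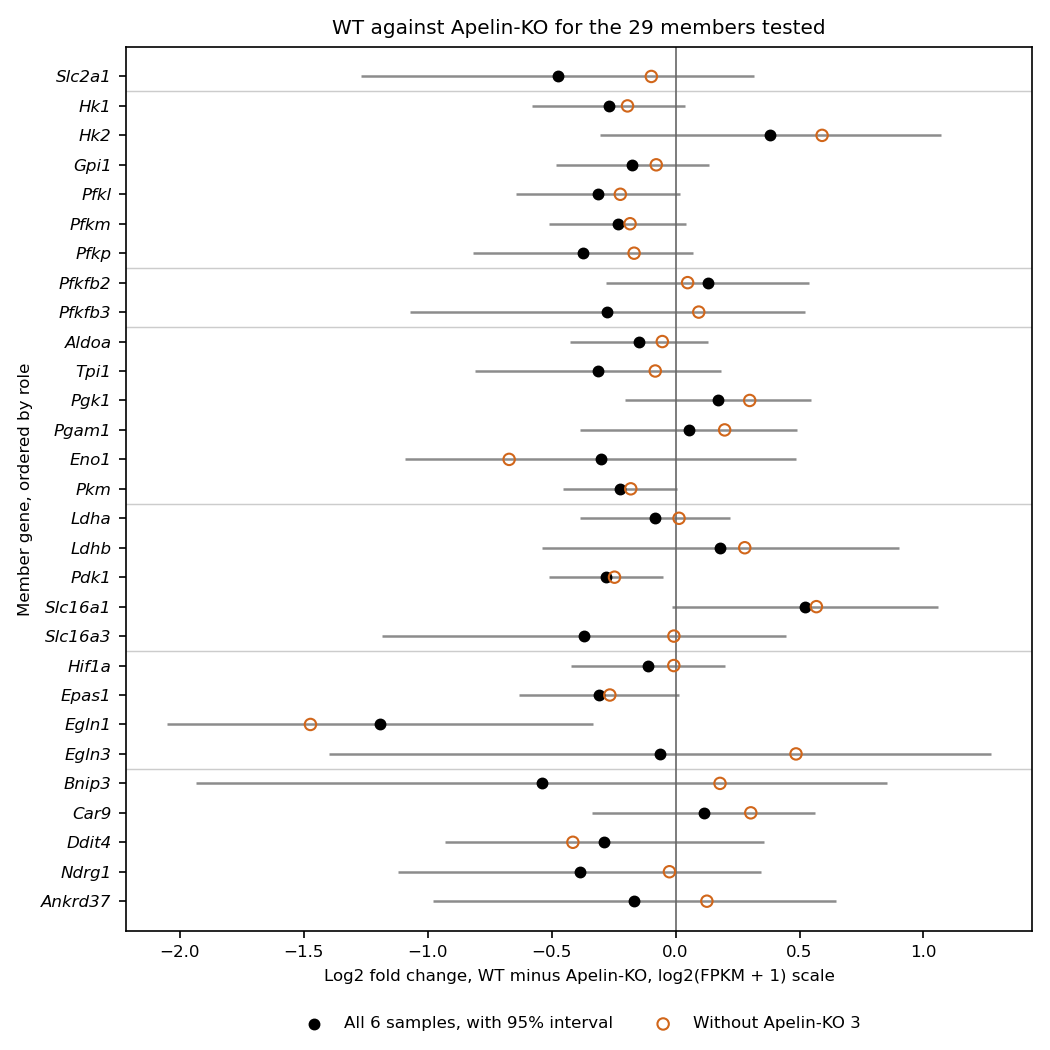
Log2 fold change of WT minus Apelin-KO on the log2(FPKM + 1) scale (x axis) for the 29 members tested (y axis, ordered by role). Filled points with bars give all 6 samples with the 95% interval from limma, and open points the value without Apelin-KO 3. Only the intervals of Egln1 and Pdk1 miss 0, and most open points lie closer to 0 or to its right.

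The levels themselves showed a glycolytic expression profile with 1 dominant gene at most steps. Ldha, the lactate dehydrogenase subunit that favors lactate formation, had the highest level of all 34 members with 1082 ± 98.0 FPKM in WT ECs and 1148 ± 139.6 FPKM in Apelin-KO ECs (mean ± SD, n = 3 each). Pkm (pyruvate kinase) and Aldoa (aldolase A) came next, and their levels, 650 and 601 FPKM over the 6 samples, are close to each other. Slc2a1, which encodes the glucose carrier GLUT1, made up 98.8 to 99.6% of the summed FPKM of Slc2a1 and Slc2a3. Hk1 made up 97.5 to 99.7% of Hk1 and Hk2, and Ldha 99.8 to 99.9% of Ldha and Ldhb. Of the 3 phosphofructokinase genes, Pfkp held 52.2 to 60.0%, Pfkl 36.8 to 44.0% and Pfkm, the muscle form, 3.18 to 4.48%. Pfkfb3, whose enzyme makes the activator of phosphofructokinase, held 87.8 to 96.5% of the sum of Pfkfb2, Pfkfb3 and Pfkfb4. The same form led each family in all 6 samples, though reads shared with copies elsewhere, described at the end, limit the comparison of some genes.

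**Figure D2:**
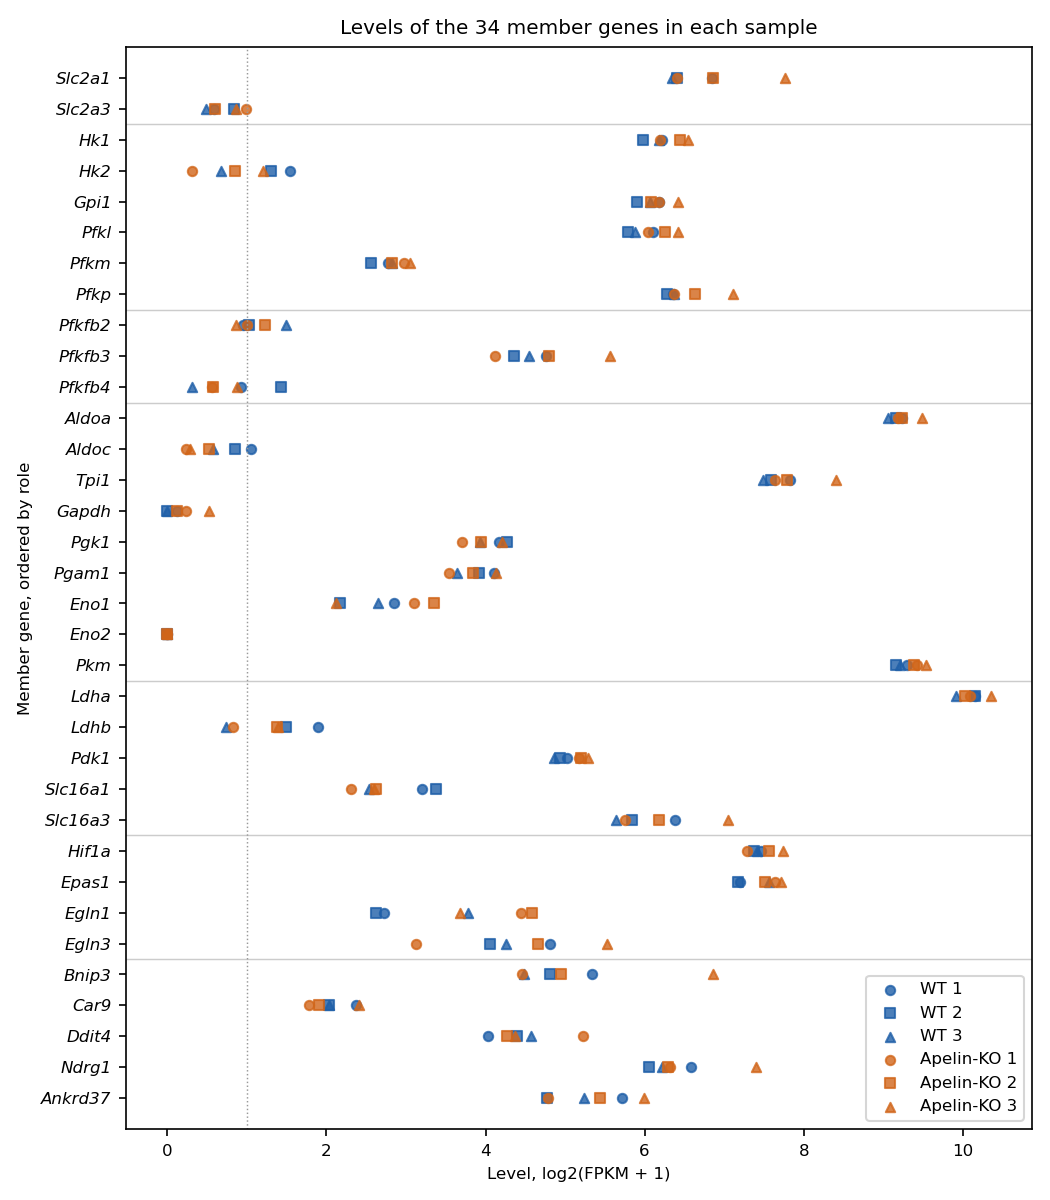
Level of each of the 34 members in each sample, as log2(FPKM + 1) on the x axis, with genes ordered by role on the y axis. Circles, squares and triangles are replicates 1, 2 and 3 of WT (blue) and Apelin-KO (orange), and the dotted line marks 1 FPKM. The triangles of Apelin-KO 3 stand to the right of the other points for Slc2a1, Bnip3, Ndrg1 and Slc16a3.

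Glucose uptake itself was not measured. Of the 2 glucose carrier genes among the members, Slc2a1 held nearly all of the summed FPKM. Its levels were 114, 84.2 and 80.5 FPKM in WT 1, 2 and 3 and 84.0, 115 and 217 FPKM in Apelin-KO 1, 2 and 3. Only Apelin-KO 3 lay clear of the other samples, and the other 5 values overlapped between groups. The log2 fold change was -0.48 (95% interval -1.27 to 0.32), with an adjusted p-value of 0.685 in limma. It was -0.10 without Apelin-KO 3 and -0.78 without Apelin-KO 1. Slc2a3, which encodes GLUT3, was listed at 0.405 to 0.99 FPKM and was not tested.

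In the upper part of glycolysis, 5 of 6 enzymes had a log2 fold change below 0, with a median of -0.25. When scaled to the endothelial markers, as described with those markers, the median was -0.02 with 4 of 6 below 0. The median over all genes tested was then 0.22. Hk1, the hexokinase bound to mitochondria in most tissues, was at 73.6, 62.3 and 71.2 FPKM in WT ECs and 72.3, 86.2 and 92.7 FPKM in Apelin-KO ECs. Its log2 fold change was -0.27, with an adjusted p-value of 0.561 in limma. Hk2, the inducible hexokinase, had the only value above 0 in this group, at 1.92, 1.46 and 0.593 FPKM in WT ECs and 0.24, 0.803 and 1.31 FPKM in Apelin-KO ECs, and the groups overlapped. The 3 phosphofructokinase genes had differences of similar size. Pfkp was at 80.8, 76.5 and 81.5 FPKM in WT ECs and 81.6, 98.1 and 138 FPKM in Apelin-KO ECs. The groups did not overlap, yet Apelin-KO 1 exceeded WT 3 by only a small margin. Log2 fold changes were -0.37 for Pfkp, -0.31 for Pfkl and -0.23 for Pfkm, with adjusted p-values of 0.574, 0.536 and 0.574 in limma. Gpi1, glucose-6-phosphate isomerase, was at 59.1 to 71.8 FPKM in WT ECs and 66.6 to 84.6 FPKM in Apelin-KO ECs.

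Of the bifunctional enzymes that set the level of fructose-2,6-bisphosphate, Pfkfb3 was at 26.0, 19.5 and 22.4 FPKM in WT ECs and 16.4, 26.8 and 46.4 FPKM in Apelin-KO ECs. The Apelin-KO group held both the lowest and the highest value. Pfkfb2 lay between 0.824 and 1.82 FPKM, and Pfkfb4 between 0.241 and 1.68 FPKM with a mean too low to be tested.

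In the lower part of glycolysis, Pkm was at 631, 574 and 593 FPKM in WT ECs and 688, 669.8 and 742 FPKM in Apelin-KO ECs. All 3 Apelin-KO samples were above all 3 WT samples. The log2 fold change was -0.22 (95% interval -0.45 to 0.01), with an unadjusted p-value of 0.0555 and an adjusted p-value of 0.529 in limma. With endothelial marker scaling, described with the markers, it turned to 0.03, beside a median of 0.22 over all genes tested. In that setting 0 members were wholly lower in WT ECs, beside 87 of all 10964 genes tested. Tpi1, triosephosphate isomerase, ranged from 178 to 226 FPKM in WT ECs and was at 199, 219.5 and 338 FPKM in Apelin-KO ECs, the last in Apelin-KO 3. Aldoa, Pgk1 (phosphoglycerate kinase) and Pgam1 (phosphoglycerate mutase) overlapped between groups, with log2 fold changes of -0.15, 0.17 and 0.05. Aldoc, the brain form of aldolase, was too low to be tested, at 1.07, 0.804 and 0.483 FPKM in WT ECs and 0.172, 0.431 and 0.213 FPKM in Apelin-KO ECs. These groups did not overlap, but the values stand for an estimated 11.4 to 28.0 reads in WT samples and 4.16 to 11.3 reads in Apelin-KO samples.

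Pdk1, pyruvate dehydrogenase kinase 1, inhibits pyruvate dehydrogenase in the mitochondria and so limits the conversion of pyruvate to acetyl-CoA, and it is a known HIF target. Its levels were 31.6, 29.5 and 28.1 FPKM in WT ECs and 35.3, 35.6 and 38.1 FPKM in Apelin-KO ECs. Every Apelin-KO sample was above every WT sample, and the SD within each group was under 2 FPKM, 29.8 ± 1.76 FPKM against 36.3 ± 1.52 FPKM (mean ± SD, n = 3 each). The log2 fold change was -0.28 (SE 0.10, 95% interval -0.51 to -0.05), with an unadjusted p-value of 0.0235 and an adjusted p-value of 0.507 in limma. With endothelial marker scaling it was -0.03, beside a median of 0.22 over all genes tested, and the groups overlapped. The gene spans chr2:71873224-71903858 (GRCm38, plus strand), and its longest coding transcript has 11 exons.

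The genes of the lactate carriers had log2 fold changes of opposite sign. Slc16a3 encodes MCT4, the carrier of cells that release much lactate, and was at 82.6, 56.3 and 48.8 FPKM in WT ECs and 52.8, 71.2 and 132 FPKM in Apelin-KO ECs. Slc16a1 encodes MCT1, which moves lactate in either direction, and was at 8.18, 9.38 and 4.78 FPKM in WT ECs and 3.94, 5.18 and 5.08 FPKM in Apelin-KO ECs. Each gene alone overlapped between groups, with log2 fold changes of -0.37 and 0.52 and adjusted p-values of 0.760 and 0.527 in limma. The log2 ratio of Slc16a3 to Slc16a1 within a sample, on values of FPKM + 1, was 3.19, 2.46 and 3.11 in WT ECs and 3.44, 3.55 and 4.45 in Apelin-KO ECs. All 3 Apelin-KO ratios exceeded all 3 WT ratios, with means of 2.92 ± 0.40 and 3.81 ± 0.55 (SD, n = 3 each). The exact two-sided permutation test gave p = 0.1, the smallest this design allows, and 0.5 after adjustment over the 10 ratios computed. Without Apelin-KO 3 the difference in the log2 ratio went from -0.89 to -0.58. The deviation of Slc16a1 from its 6-sample mean on the log2(FPKM + 1) scale was 0.42, 0.60 and -0.24 in WT ECs and -0.47, -0.15 and -0.17 in Apelin-KO ECs. The median deviation of the hematopoietic markers was 0.78, 1.44 and -0.33 in WT ECs and -1.42, -0.11 and -0.37 in Apelin-KO ECs. Both were above 0 in WT 1 and WT 2 and lowest in Apelin-KO 1, and the part of other cells in the ratio was not tested. The other ratio whose groups did not overlap was Aldoc to Aldoa, with a difference of 0.63 and the same exact permutation p-values of 0.1 and 0.5. The other 8 ratios had exact permutation p-values of 0.2 to 0.8, and the ratio of Eno2 to Eno1 reflects Eno1 alone because Eno2 was listed at 0.

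Among the genes that control HIF, Egln1 showed the largest log2 fold change in size of the 29 members tested, on the log2(FPKM + 1) scale. Egln1 encodes PHD2, the main oxygen sensor that hydroxylates HIF-1α and HIF-2α in normoxia. Its levels were 5.61, 5.16 and 12.8 FPKM in WT ECs and 20.9, 23.0 and 11.8 FPKM in Apelin-KO ECs. WT 1 and WT 2 were low, Apelin-KO 1 and 2 were high, and WT 3 and Apelin-KO 3 crossed over in between, so that the groups overlapped. The means were 7.85 ± 4.28 and 18.5 ± 5.96 FPKM (SD, n = 3 each). The log2 fold change was -1.19 (SE 0.36, 95% interval -2.05 to -0.33), with an unadjusted p-value of 0.0134 and an adjusted p-value of 0.501 in limma. Leaving out WT 3 gave -1.56 and leaving out Apelin-KO 3 gave -1.47, the samples that crossed over, with adjusted p-values of 0.137 and 0.727 in limma. Leaving out any of the other 4 samples gave -1.08 to -0.98, with adjusted p-values of 0.472 to 0.931 in limma. The estimated reads behind these values were 193, 156 and 395 in WT samples and 661, 791 and 376 in Apelin-KO samples, and 0 of the 75-base windows of the transcript are found in another gene. The gene spans chr8:124908587-124949324 (GRCm38, minus strand).

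The oxygen sensor's paralog Egln3 encodes PHD3 and is itself a strong HIF target. It was at 27.0, 15.7 and 18.1 FPKM in WT ECs and 7.70, 24.2 and 45.3 FPKM in Apelin-KO ECs, with both extremes in the Apelin-KO group and a log2 fold change of -0.06. Epas1, which encodes HIF-2α and is typical of endothelium, was at 146, 143 and 189 FPKM in WT ECs and 199, 182 and 209 FPKM in Apelin-KO ECs. WT 3 lay within the Apelin-KO range, and the log2 fold change was -0.31, with an adjusted p-value of 0.531 in limma. Hif1a, which encodes HIF-1α, was at 175, 165 and 169 FPKM against 155, 188 and 212 FPKM, with a log2 fold change of -0.11, or -0.01 without Apelin-KO 3 and -0.23 without Apelin-KO 1. Hif1a and Epas1 thus stood at nearly the same level, each with a mean of 178 FPKM over the 6 samples. Both factors are controlled mainly through their protein, which these data do not measure. Over Egln1, Egln3, Hif1a and Epas1 the median log2 fold change was -0.21. With endothelial marker scaling it was 0.04, beside 0.22 over all genes tested.

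The 5 other hypoxia-response genes had both groups overlapping. Bnip3, a HIF target that acts in mitophagy, was at 39.4, 27.2 and 21.4 FPKM in WT ECs and 20.9, 29.9 and 115 FPKM in Apelin-KO ECs. Ndrg1, a stress-response gene, was at 94.9, 65.4 and 73.6 FPKM in WT ECs and 79.0, 77.7 and 168 FPKM in Apelin-KO ECs. In both genes Apelin-KO 3 alone was high and the remaining 5 samples overlapped. Ankrd37, another HIF target, was at 51.5, 26.3 and 36.6 FPKM in WT ECs and 26.7, 42.3 and 62.5 FPKM in Apelin-KO ECs. Car9, which encodes the pH-regulating carbonic anhydrase IX, was low, at 3.09 to 4.19 FPKM in WT ECs and 2.42 to 4.32 FPKM in Apelin-KO ECs. Ddit4, which encodes the mTORC1 inhibitor REDD1, was highest in Apelin-KO 1 at 36.4 FPKM, with 15.4 to 22.8 FPKM in the other 5 samples. The adjusted p-values of these 5 genes were 0.719 to 0.902 in limma.

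Apelin-KO 3 stood apart across the list. It was the highest of the 6 samples in 21 of the 29 members (72.4%), beside 24.9% of all genes tested. On the log2(FPKM + 1) scale it exceeded the mean of Apelin-KO 1 and 2 by more than 1 in 6 members (20.7%), beside 87 genes (0.794%) of all tested, and the median of this difference was 0.29 over members and 0.01 over all genes. For these 6 members, the ratio in FPKM of Apelin-KO 3 to the mean of Apelin-KO 1 and 2 was 4.53 for Bnip3, 2.84 for Egln3, 2.18 for Slc2a1, 2.14 for Pfkfb3, 2.14 for Ndrg1 and 2.12 for Slc16a3. Hk2, with low values, had a ratio of 2.51. The ratio was below 1 for 4 members tested, 0.398 for Eno1, 0.537 for Egln1, 0.707 for Pfkfb2 and 0.717 for Ddit4. Estimated depth and the FPKM sum of Apelin-KO 3, 9420000 reads and 528526, lay within the ranges of the other samples.

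**Figure D3:**
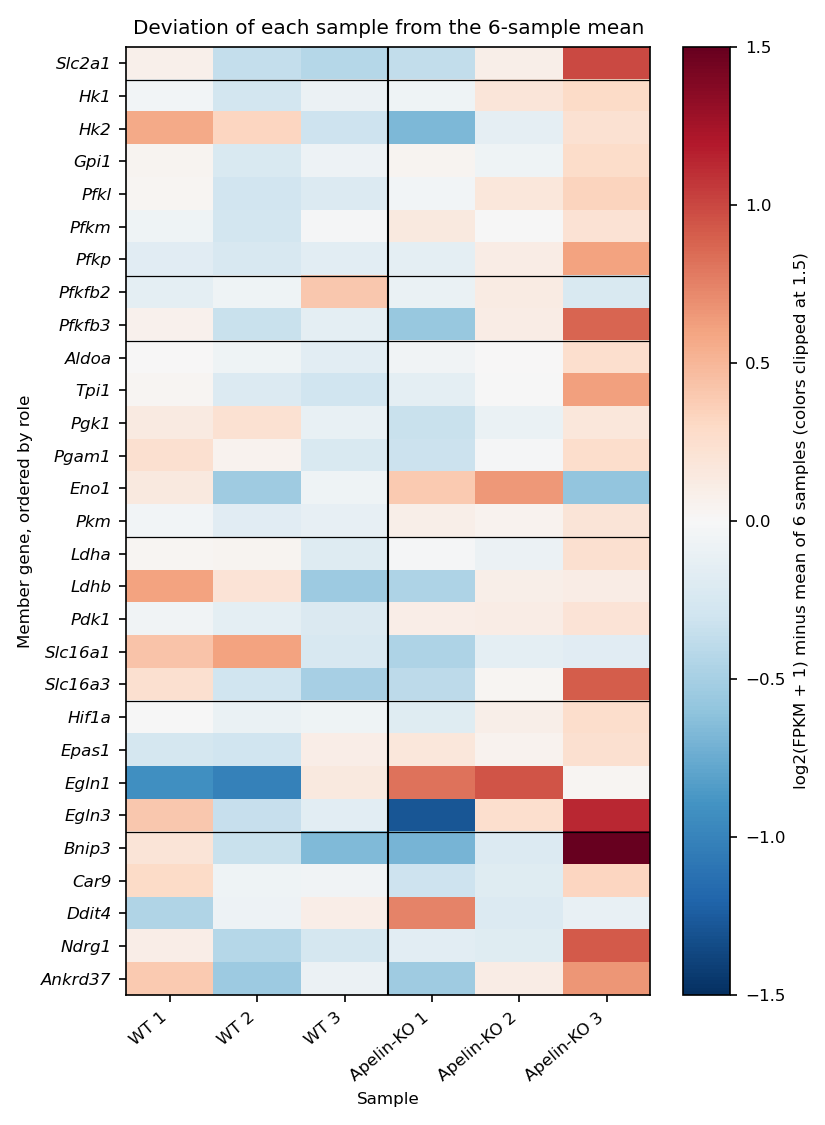
Deviation of each sample from the mean of the 6 samples on the log2(FPKM + 1) scale, for the 29 members tested (rows, ordered by role) and the 6 samples (columns). Red is above and blue below the mean, with colors clipped at 1.5. The Apelin-KO 3 column is red for most genes, with Bnip3 the darkest cell, while Eno1, Pfkfb2, Slc16a1 and Ddit4 are blue there and Egln1 is close to 0.

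Without Apelin-KO 3 the median log2 fold change over the 29 members was -0.02, with 12 members above 0 and 17 below. The sign of 5 members that were below 0 with all samples changed, to 0.49 for Egln3, 0.18 for Bnip3, 0.13 for Ankrd37, 0.09 for Pfkfb3 and 0.01 for Ldha. Slc16a3 went from -0.37 to -0.01, Ndrg1 from -0.39 to -0.02 and Pfkp from -0.37 to -0.17. The median over the 5 other hypoxia-response genes went from -0.29 to 0.13. Leaving out a sample cannot make separate groups overlap, so Pdk1, Pkm, Pfkm and Pfkp remain separate by construction, while the groups of Egln1 and Eno1 no longer overlapped. Of all 10964 genes, 1340 were wholly lower in WT ECs in this setting. In this fit Egln1 and Eno1 had unadjusted p-values of 0.00721 and 0.0238 in limma and Pdk1 of 0.0561. Car9 was then wholly higher in WT ECs, beside 1160 genes. No adjusted p-value of a member was under 0.727 in this limma fit.

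No cell type marker had an adjusted p-value under 0.05 in limma, but the endothelial, hematopoietic and fibroblast markers that were tested each shared a sign. All 12 endothelial markers had a log2 fold change below 0, with a median of -0.25, and their sum was 4085, 3815 and 4622 FPKM in WT ECs and 4935, 4789 and 5067 FPKM in Apelin-KO ECs. All 15 hematopoietic markers tested had one above 0, with a median of 1.25 (0.81 without Apelin-KO 1), though their sums overlapped between groups. Of 9 fibroblast markers 7 were tested, and 7 of 7 were above 0, with a median of 0.60, and 5 of 7 without WT 1. Of those not tested, Lum overlapped between groups. Fap was wholly lower in WT ECs, at 0.043 to 0.133 FPKM against 0.337 to 0.468 FPKM. Among the markers tested, groups did not overlap for 4 of the 12 endothelial, 1 of the 15 hematopoietic and 1 of the 7 fibroblast markers. Of the mural markers 5 of 6 were below 0, and 1, Rgs5, was wholly lower in WT ECs at 3.17 to 3.66 FPKM against 6.83 to 8.67 FPKM (log2 fold change -0.98). Erythroid markers, with 4 tested, summed to 79.2 FPKM in Apelin-KO 3 and to 19.2 to 56.1 FPKM in the other samples, and 1, Hbb-bs, was wholly lower in WT ECs (log2 fold change -2.84). Lum, Fap, Rgs5 and Hbb-bs are named after their values were seen. The median of the members, -0.23, is of the size of that of the endothelial markers, and the share of endothelial RNA and the level per EC cannot be told apart. When the FPKM were scaled to the endothelial markers, an alternative chosen after the values were seen, the median became -0.02 over members, with 14 above 0 and 15 below, and 0.22 over all genes tested. Egln1 kept -0.96 under this scaling, with an adjusted p-value of 0.248 in limma.

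**Figure D4:**
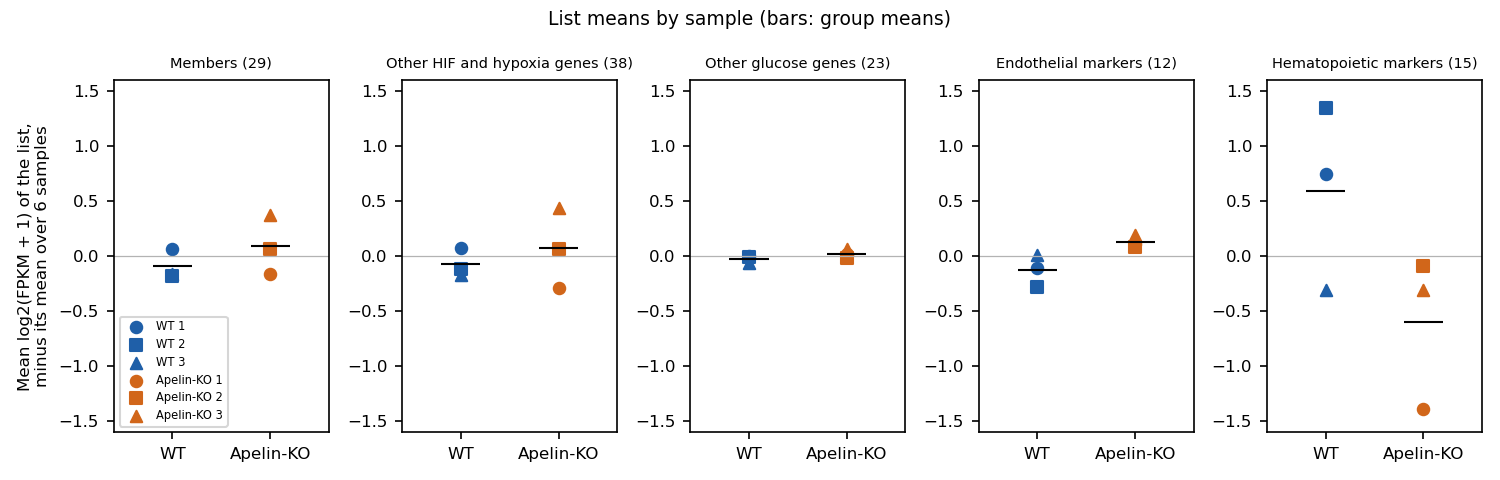
Mean of log2(FPKM + 1) over each gene list in each sample, minus the mean of the 6 samples (y axis), for members, both lists of further pathway genes, endothelial markers and hematopoietic markers, with the number of genes tested in parentheses. Symbols are single samples and bars are group means. Apelin-KO 3 is highest in each list except the hematopoietic markers, the groups separate for endothelial markers, and the hematopoietic markers are highest in WT 2 and lowest in Apelin-KO 1.

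Further genes of the pathways were taken from 2 lists. Of 41 other glycolysis and glucose genes, 23 were tested, at an unadjusted p-value under 0.05 there was 1 higher and 2 lower in WT ECs, beside 5.17% and 4.25% of all genes tested, and the median log2 fold change was -0.02. Slc2a6, a lysosomal hexose carrier, was at 2.79, 3.89 and 1.69 FPKM in WT ECs and 0.605, 1.54 and 1.01 FPKM in Apelin-KO ECs, a log2 fold change of 0.87 with an adjusted p-value of 0.501 in limma. Like the hematopoietic markers, it was highest in WT 2, then in WT 1, and lowest in Apelin-KO 1, and the part of other cells was not tested. Pgm1, phosphoglucomutase, was at 75.2, 71.0 and 76.6 FPKM in WT ECs and 94.3, 85.0 and 91.0 FPKM in Apelin-KO ECs, a log2 fold change of -0.27 with an adjusted p-value of 0.509 in limma. The groups did not overlap in either gene, as in 6.61% of all genes tested in the direction of Slc2a6 and 7.77% in that of Pgm1. The other gene lower in WT ECs, Pdk2, overlapped and is named after its values were seen. Of 46 other HIF pathway and hypoxia genes, 38 were tested, with 8 above 0 and 30 below and a median of -0.13. Without Apelin-KO 3 this became 19 and 19 with a median of 0.01. Without Apelin-KO 1 it was 3 above 0 and 35 below with a median of -0.25. With endothelial marker scaling it was 27 and 11 with a median of 0.12, beside 0.22 over all genes tested. Of these 38, 2 lower in WT ECs (Stc2 and Kdm4b) and 1 higher (Sap30) had unadjusted p-values under 0.05 and groups that did not overlap, beside 4.25% lower and 5.17% higher of all genes tested at that p-value, with log2 fold changes of -0.50, -0.32 and 0.32 and adjusted p-values of 0.501 to 0.525 in limma.

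Promoter sequences of members were read from RefSeq (GRCm38.p6), as 300 bases from 250 before to 50 after the start, and 31 of the 34 members matched. Epas1, Ndrg1 and Slc2a3 were not matched. ACGTG or GCGTG on either strand was found in at least 1 promoter of 28 of the 31 genes (90.3%), beside 69.0% of 8336 genes tested. Per promoter, of which a gene can have several, it was found in 38 of 46 member promoters (82.6%), beside 62.8% of promoters of genes tested and 43.8% of all promoters. ACGTG alone was found in 22 of 31 genes (71.0%), beside 29.8% of genes tested, and in 56.5% of member promoters, beside 25.7% and 19.6%. Many members were listed as HIF target genes, so these shares describe how the list was made and are no result of the samples. Members that were not tested count among the 31 genes. The 31 genes had 46 promoters, beside 10654 promoters for the 8336 genes tested. The promoters of Egln1, which had the largest log2 fold change among members tested, and of Bnip3, Egln3 and Slc2a1, which were high in Apelin-KO 3, are shown because the values above turn on these genes, and they were chosen after the values were seen. They lie at chr8:124949205-124949504, chr7:138909457-138909756 and chr12:54203825-54204124 on the minus strand and at chr4:119108495-119108794 on the plus strand. Capitals mark ACGTG or GCGTG as read here or on the other strand, where they appear as CACGT or CACGC, and CACGTG holds ACGTG on both strands and is also an E-box.
Egln1: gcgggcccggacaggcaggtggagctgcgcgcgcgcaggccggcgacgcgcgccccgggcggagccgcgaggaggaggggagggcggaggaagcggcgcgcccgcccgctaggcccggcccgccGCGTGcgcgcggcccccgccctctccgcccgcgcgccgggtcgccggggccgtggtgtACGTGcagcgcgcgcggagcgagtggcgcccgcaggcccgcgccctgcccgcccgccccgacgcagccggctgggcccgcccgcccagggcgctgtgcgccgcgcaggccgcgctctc
Bnip3: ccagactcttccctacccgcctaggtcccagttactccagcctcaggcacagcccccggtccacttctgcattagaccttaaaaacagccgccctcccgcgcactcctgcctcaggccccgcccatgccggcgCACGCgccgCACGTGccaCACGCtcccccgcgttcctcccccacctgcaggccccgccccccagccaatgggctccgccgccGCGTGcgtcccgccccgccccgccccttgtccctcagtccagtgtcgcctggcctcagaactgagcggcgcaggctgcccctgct
Egln3: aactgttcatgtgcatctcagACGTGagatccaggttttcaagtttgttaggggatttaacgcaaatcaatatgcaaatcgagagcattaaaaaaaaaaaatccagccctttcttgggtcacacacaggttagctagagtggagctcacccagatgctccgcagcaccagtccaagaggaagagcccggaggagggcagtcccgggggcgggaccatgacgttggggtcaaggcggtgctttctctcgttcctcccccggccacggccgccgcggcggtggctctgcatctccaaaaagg
Slc2a1: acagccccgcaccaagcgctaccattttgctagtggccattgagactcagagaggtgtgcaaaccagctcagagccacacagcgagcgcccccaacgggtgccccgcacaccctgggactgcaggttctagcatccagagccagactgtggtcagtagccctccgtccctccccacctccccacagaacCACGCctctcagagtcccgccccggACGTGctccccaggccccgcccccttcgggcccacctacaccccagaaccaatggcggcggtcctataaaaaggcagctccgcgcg
The promoter of Bnip3 held 5 matches, those of Egln1 and Slc2a1 held 2 each, and that of Egln3 held 1. Egln1 and Egln3 both carry ACGTG, and in Apelin-KO 3 the former was at 0.537 and the latter at 2.84 times the mean of the other Apelin-KO samples. The letters are a description of the window and not a binding site, and binding was not measured in these samples.

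Of the 34 members, 5 lay under 1 FPKM on average, and reads shared with copies elsewhere can be lost or split in counting. For each member, the longest coding transcript in GENCODE M21 was cut into 75-base windows, the length of the reads, and each window was searched with up to 2 mismatches in the transcripts of other genes. Gapdh, the glyceraldehyde-3-phosphate dehydrogenase that every cell uses, was listed at 0.092, 0 and 0 FPKM in WT ECs and 0.175, 0.091 and 0.433 FPKM in Apelin-KO ECs, an estimated 4.98 reads or fewer. Windows shared with other genes made up 82.6% of its transcript, and 246 other genes, 240 of them pseudogenes, held at least 1 such window. A Gapdh coding window at chr6:125162908-125162982 on the minus strand of GRCm38, bases 620 to 694 of the transcript, was found in 119 other genes and is shown as the window with the most copies.
Gapdh: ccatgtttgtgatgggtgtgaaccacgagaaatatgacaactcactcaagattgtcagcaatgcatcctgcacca
The setting for reads with several matches is not given in the sources used here, and the part of such reads in the low Gapdh values was not tested.

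Eno1, enolase 1, was listed at 6.22, 3.51 and 5.25 FPKM in WT ECs and 7.59, 9.23 and 3.35 FPKM in Apelin-KO ECs, while its retrotransposed copy Eno1b was at 138, 129 and 110 FPKM and at 139, 138 and 176 FPKM. Windows shared with other genes made up 85.2% of the Eno1 transcript, and 82.3% were found in Eno1b, with or without further genes. The window at chr4:150246632-150246706 on the plus strand was found in 6 other genes, the most for Eno1.
Eno1: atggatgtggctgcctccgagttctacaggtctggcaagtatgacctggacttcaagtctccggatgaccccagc
The sum of Eno1 and Eno1b was 145, 133 and 115 FPKM in WT ECs and 146, 147.5 and 179 FPKM in Apelin-KO ECs. It was lowest in WT 3 and highest in Apelin-KO 3, and the means were 131 ± 14.8 and 158 ± 18.8 FPKM (SD, n = 3 each). The groups did not overlap, as in 7.77% of all genes tested in that direction, yet Apelin-KO 1 exceeded WT 1 by only a small margin. The sum was formed after the values of Eno1b were seen and was not tested. The Eno1 row alone had a log2 fold change of -0.30 with groups that overlapped, which was -0.67 without Apelin-KO 3 and -0.05 without Apelin-KO 2, and how reads were divided between the pair was not tested.

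Pgk1, Ldhb and Pkm also shared more than 60% of their windows, with 4, 1 and 9 other genes, and Gpi1, Pgam1 and Ldha shared 45.2%, 40.6% and 40.1%. Pgk1 and Pgam1 had means of 15.6 and 13.7 FPKM, while Tpi1, at an earlier step, was at 225 FPKM and Pkm, at a later one, at 650 FPKM. For the other low members no such copies were found in the annotated transcripts. A genome sequence was not searched, so copies outside the annotation are not counted. Slc2a3, Pfkfb4, Aldoc and Eno2 shared 0 windows, and Eno2, the neuronal enolase, was listed at 0 in all 6 samples. In all, 20 members shared no window, among them Egln1, Pdk1, Slc16a1, Slc16a3 and Slc2a1, while 29.1% of Bnip3 windows were found in 4 pseudogenes.

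**Figure D5:**
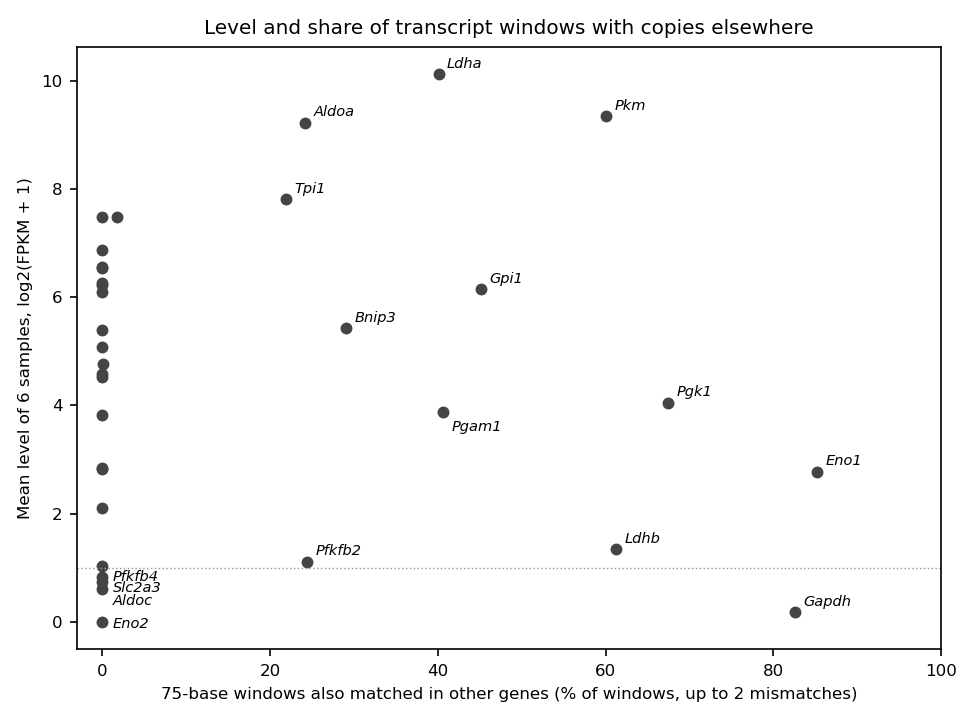
Mean level over the 6 samples as log2(FPKM + 1) (y axis) against the percentage of 75-base transcript windows also found in other genes with up to 2 mismatches (x axis), 1 point per member. The dotted line marks a value of 1 on the log scale. Gapdh sits at the lower right with 82.6% shared, while Aldoc, Eno2, Pfkfb4 and Slc2a3 are low with 0 shared, and Pkm and Ldha are high although they share windows.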

How the data were processed

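RNA-sequencing of sorted tumor ECs was analysed in 3 WT and 3 Apelin-KO samples, grouped by the GEO labels. The authors made stranded mRNA libraries, read 75 bases from single ends and mapped them to mm10. The submitters' processing notes name bcl2fastq 2.17.1.14, TopHat2 2.1.1, Bowtie2 2.2.4, SAMtools 1.0 and Cufflinks 2.2.1, and the methods give some other versions. The deposited values are FPKM per gene symbol, without read counts. The annotation and the settings for strand and for reads with several matches are not given in the sources used here.

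FPKM were used as deposited, on log2(FPKM + 1), and a gene entered if its mean reached 1 FPKM. The contrast WT minus Apelin-KO was fitted in limma 3.58.1 (R 4.3.3) by its moderated test, two-sided, and p-values were adjusted by Benjamini-Hochberg over 10964 genes. The fit was tested on simulated data. Ratios of paralogs were compared by exact permutation. Depth was estimated from the FPKM steps of 3005 genes with a single transcript, assuming 200-base fragments. Between 68.8% and 72.1% of low values lay within 0.1 of a whole read, too few to recover counts. Windows and positions come from GENCODE M21 (GRCm38) and promoters from RefSeq, with Python 3.11.15, numpy 2.4.6, pandas 2.3.3 and matplotlib 3.10.9.

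The rule names all 34 members, Apln, Ptprc, Pecam1 and Cdh5, with the further pathway genes that had an unadjusted p-value under 0.05 and no overlap. Eno1b and Pdk2 were named after their values were seen. Members and lists were chosen with earlier results of these data known. Alternatives changed the pseudocount, filter, scaling, variance, block and samples. The replicate numbers did not pair the samples (correlations of deviations of -0.14, 0.21 and -0.02), so that no block was used in the values reported.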

Additional observations from a re-analysis of the deposited data

How the results depend on the processing

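The members' count at an adjusted p-value under 0.05 was 0 in every alternative, in the limma fits and in the fit that used the variance of each gene alone, and the members' median log2 fold change was -0.27 to -0.16 in all but the settings named here. It was -0.025 without Apelin-KO 3 (range -0.26 to -0.025 when each sample was left out in turn) and -0.015 with endothelial marker scaling, which was chosen after seeing the data. Members lower in WT at an unadjusted p-value under 0.05 numbered 4 under a filter of 5 FPKM on the mean (397 of all 7878 genes tested), 6 with an intensity trend (532 of 10964), 1 with equal sums (336), 1 with the replicate number as a block (364), 1 with endothelial marker scaling and 0 to 7 leaving out each sample, with 0 without WT 2 (224) and 7 without Apelin-KO 1 (494). Members higher in WT numbered 1 without a filter, where Aldoc entered (805 of all 16341 genes), 1 with endothelial marker scaling and 0 to 1 leaving out each sample. Members that did not overlap between groups numbered 1 higher without a filter (1086 of all genes) and 0 lower with endothelial marker scaling (87 of all genes). Leaving out each sample gave 0 to 3 higher and 4 to 10 lower, with 3 without WT 3 (1549 of all genes) and 10 without WT 1 (1343).

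Over all genes tested, those with an adjusted p-value under 0.05 numbered 2 with a pseudocount of 0.01, without a filter, under the filter of 5 FPKM and with an intensity trend, 0 with own variance (783 at an unadjusted p-value under 0.05) and 0 to 3 leaving out each sample. Genes higher in WT at an unadjusted p-value under 0.05 numbered 330 with at least 5 FPKM, 376 with own variance, 2057 with endothelial marker scaling and 314 to 738 leaving out each sample. Those lower numbered 55 with endothelial marker scaling and 224 to 547 leaving out each sample. Genes without overlap and higher in WT numbered 451 with at least 5 FPKM, 3068 with endothelial marker scaling and 1043 to 1549 leaving out each sample, and those lower 87 with endothelial marker scaling and 1170 to 1737 leaving out each sample.

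The difference in the log2 ratio of Hk2 to Hk1 was 1.05 and 1.16 with pseudocounts of 0.1 and 0.01, and that of Aldoc to Aldoa 1.40 and 1.68. With endothelial marker scaling, log2 fold changes turned to 0.077 for Gpi1, 0.11 for Aldoa, 0.031 for Pkm, 0.17 for Ldha, 0.14 for Hif1a, 0.18 for Egln3 and 0.082 for Ankrd37. Leaving out each sample turned the sign at least once for Ankrd37 (-0.47 to 0.13), Bnip3 (-1.02 to 0.18), Car9 (-0.015 to 0.30), Ddit4 (-0.46 to 0.015), Egln3 (-0.72 to 0.49), Ldha (-0.15 to 0.014), Ldhb (-0.079 to 0.50), Pfkfb2 (-0.038 to 0.23), Pfkfb3 (-0.63 to 0.093) and Pgam1 (-0.10 to 0.20). Apart from the sample left out, the cause was not tested. Depth limits the precision of Slc2a3, Pfkfb4, Ldhb, Aldoc and Hk2, which rest on few estimated reads.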
